A study of Mus musculus with 16 samples.

Results

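Gene expression in the hippocampus of female mice was compared between 4 chronic-stressed and 4 non-stressed libraries, which are 8 of the 16 libraries of the series, across the 16955 autosomal genes that passed an expression filter, of 51130 autosomal genes in the deposited count table. The mice were of the strain C57BL/6JNarl, both groups were female, and the labels give every one of the 8 libraries a pooling size of 3, taken here as animals per library. The labels state neither the kind nor the duration of the stress, the age of the animals, nor whether pools shared animals, so p-values measure the spread between these libraries. The remaining 8 libraries are the male groups, which entered the fit and are given only beside the female values. Genes were also sorted by whether their span from start to end shared at least 1 base with a gene on the other strand.

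The hippocampus carries dense receptors for corticosteroids, the hormones released under stress. These act through the glucocorticoid and mineralocorticoid receptors, which are transcription factors held ready by heat shock co-chaperones, and hippocampal neurons and glia also run a molecular clock that these hormones can shift. Genes on opposite strands of the same stretch of DNA can be told apart by sequencing only if the library and the counting keep the strand.

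Total counts ran from 15.8 to 20.1 M (M, 1e+06) in the non-stressed and from 18.2 to 28.6 M in the stressed female libraries. The stressed libraries agreed closely among themselves, with Pearson r of log2 CPM (counts scaled to the same library total) from 0.995 to 0.997 across the 9566 tested genes without an opposite-strand overlap. The non-stressed libraries were uneven. Against the stressed libraries, r was 0.946 to 0.950 for non-stressed library 4 and 0.967 to 0.969 for library 1, but 0.980 to 0.982 for library 2 and 0.984 to 0.987 for library 3. Libraries 1 and 4 thus stood farther from the stressed group than 2 and 3 did, and 1 or both of them also held more counts of genes that a female hippocampus should lack. The Y-linked helicase gene Ddx3y had 44, 3, 3 and 22 counts in non-stressed female libraries 1 to 4 and 4, 0, 2 and 0 in stressed libraries 1 to 4. Stressed library 1 also held 7, 7 and 4 counts of the Y-linked genes Eif2s3y, Kdm5d and Uty. Non-stressed library 4 held 8, 9 and 2 counts of these, and non-stressed library 1 held 36, 16 and 4. Genes of the anterior pituitary, a list of 12 made after prolactin was seen to rest on 1 library, summed to 6.55 to 9.09 CPM in non-stressed libraries 1 to 3, to 265 CPM in library 4 and to 1.92 to 4.22 CPM in the stressed ones, with 0 members undetected. The part of these sources in the other results was not tested. The beta-globin gene Hbb-bs, a marker of blood, stood at 136 and 129 CPM in non-stressed libraries 1 and 4, against 43.7 and 54.5 CPM in libraries 2 and 3 and 38.9 to 48.6 CPM in the stressed group. Among genes called lower with no opposite-strand overlap, the median log2 difference between the stressed mean and non-stressed libraries 1 to 4 was -0.62, -0.39, -0.29 and -0.83. Among genes called higher it was 0.57, 0.37, 0.24 and 0.77. All 4 libraries lay on the same side, with libraries 1 and 4 farthest away. The genes were called with these same libraries, so a shared side was favoured by the choice of genes. Results are given below with all 8 libraries and, where they changed, without libraries 1 and 4.

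**Figure D1:**
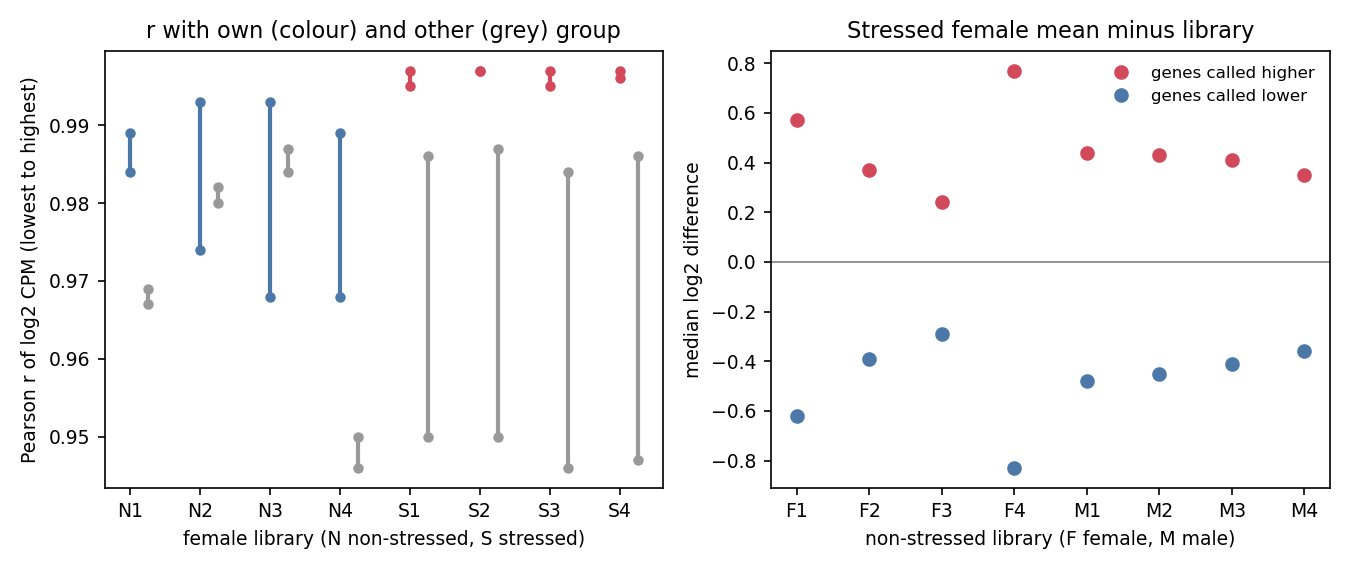
Agreement among the 8 female libraries. Left, lowest and highest Pearson r of log2 CPM of each library with its own group (coloured) and with the other group (grey). Right, median over genes called in females of the stressed mean minus each non-stressed library (log2). The stressed mean is that of the same sex, so the panel title holds for the female libraries only. Female libraries 1 and 4 lie farthest from 0 and the male libraries (M) between -0.48 and 0.44.

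Chronic stress went with altered counts at 8352 of the 16955 autosomal genes (49.3%) by edgeR's quasi-likelihood test at a Benjamini-Hochberg adjusted p under 0.05. Of these, 3735 (22.0% of the genes tested) were higher and 4617 (27.2%) lower in stressed females. Without non-stressed libraries 1 and 4 the calls fell to 2667 higher (15.7%) and 2712 lower, 31.7% of the genes tested in all, and 4989 of the 8352 calls kept their call and sign. Both fits drew part of their estimate of spread from the male libraries. In a fit of the female libraries alone 6164 genes (36.4%) were called, 2623 higher and 3541 lower. The split depended on the scaling: rises made up 44.7% of the calls on counts, 74.1% with FPKM rescaled to the same total in every library (TPM), and 58.9% without libraries 1 and 4 and with a trend of exonic length and GC content removed. Over all autosomal genes the median log2 fold change was -0.03 on counts and 0.22 after rescaling to TPM, so a small negative value or list median below can turn positive on that scale, as the text says where a named gene did. A call is described as kept below where the gene passed with the same sign in 3 further fits, namely without libraries 1 and 4, with the length and GC trend removed, and with both. Of the 8352 calls, 2742 were kept, 1350 higher (7.96% of the genes tested) and 1392 lower (8.21%).

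Large falls gathered at genes that overlap another gene on the opposite strand. Among the 7389 overlapped genes tested, 509 (6.89%) were called and changed over 4-fold, against 314 of the 9566 genes with no overlap (3.28%). Of the 509, 120 were rises and 389 falls, and of the 314, 130 were rises and 184 falls. The excess thus lay mainly in the falls. Calls of any size were 26.7% higher and 25.4% lower with an overlap and 18.4% higher and 28.6% lower without one. For each overlapped gene the partner was taken as the overlapping opposite-strand gene with the highest mean CPM over the 8 female libraries. Where the partner stood at over 10 times the gene's own CPM (1160 genes), 43.5% of genes were called lower and 25.4% were lower by over 4-fold, with a median log2 fold change of -0.55. Where the partner stood under 0.1 times the gene's CPM (3651 genes), 17.4% were called lower, 0.383% by over 4-fold, and the median was 0.12. The count of genes over 4-fold lower beside a much more abundant partner was 295 with all libraries and 305 without libraries 1 and 4, and in males it was 309. It depended on how low genes were treated: 88 with a stricter filter (FPKM of at least 2), and 65 or 24 after 0.5 or 1 was added to the FPKM, which shrinks the folds of low genes. The sources used here do not give the strand setting of counting, and its part in these changes was not tested.

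**Figure D2:**
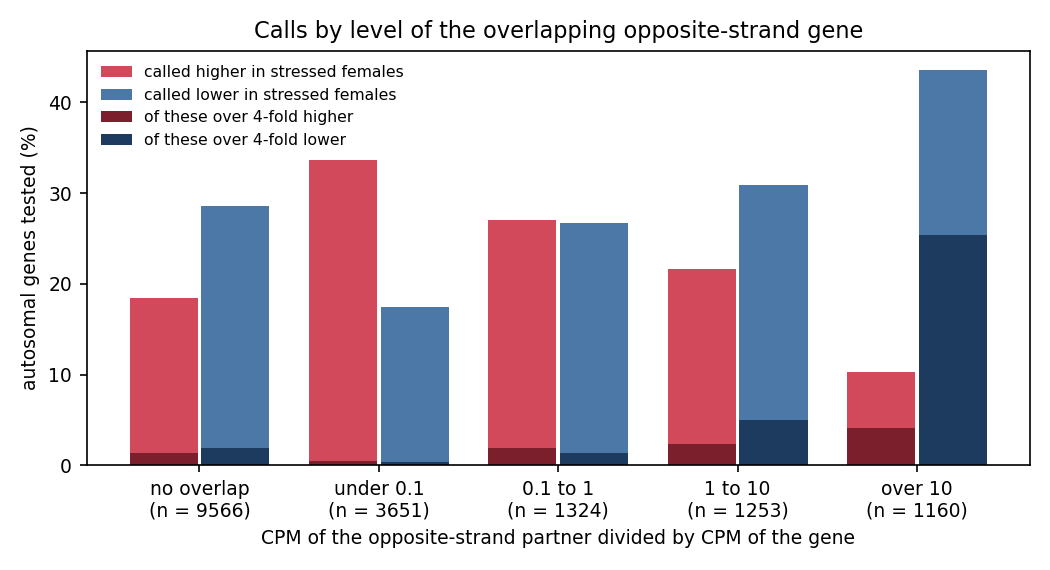
Share of tested autosomal genes called higher (red) or lower (blue) in stressed females, by the CPM of the overlapping opposite-strand gene divided by the gene's own CPM (n genes under each pair of bars). The dark part of each bar is the share past 4-fold, which reaches 25.4% lower where the partner is over 10 times more abundant.

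Among protein-coding genes, large rises as well as large falls were more often at overlapped genes (77.8% and 63.7%) than the genes tested were (44.6%). Of 102 protein-coding genes over 4-fold lower, 65 overlapped an opposite-strand gene, 31 more had one within 5 kb, and 6 had none (5.88%). Of 54 over 4-fold higher, 42 overlapped one, 0 had one within 5 kb without overlap, and 12 had none (22.2%). Among all 13260 protein-coding genes tested, 44.6% overlapped one, 24.6% had one within 5 kb and 30.8% had none. Of the changes over 4-fold with no overlap, only part were protein coding: 12 of 130 rises and 37 of 184 falls, while 40 and 57 were pseudogenes and 33 and 11 small RNA genes.

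Pairs of opposite-strand genes show these changes library by library. Pdcd2, a ribosome assembly factor on GRCm39 chromosome 17 from 15739470 to 15747563, lies wholly within the span of Tbp, which encodes the TATA-binding protein. Pdcd2 stood at 0 CPM in all 4 non-stressed libraries and at 8.66, 7.90, 8.60 and 7.49 CPM in stressed libraries 1 to 4, at least 198-fold higher if the non-stressed group as a whole is set to 3 counts. Tbp stood at 32.9 ± 2.12 CPM in non-stressed and 34.7 ± 1.16 CPM in stressed females (SD, n = 4), with a log2 fold change of 0.07 ± 0.07 (SE, adjusted p = 0.372). Gnpnat1, an acetyltransferase of the hexosamine pathway, rose from 1.08, 0.325, 0.695 and 0.386 CPM to 13.7, 13.8, 14.1 and 11.4 CPM (log2 fold change 4.42 ± 0.23), with its partner Styx at 9.76 ± 2.61 and 8.76 ± 0.166 CPM. The pseudouridine synthase Pus3 rose from 0.254, 0.812, 0.397 and 0 CPM to 9.82, 11.2, 11.2 and 11.8 CPM, and its partner Hyls1 stood at 13.8 ± 2.10 and 11.2 ± 0.419 CPM. The integrin-linked kinase Ilk rose from 6.23 ± 3.06 to 64.9 ± 3.19 CPM while its partner Taf10, a transcription factor subunit, fell from 39.6 ± 9.54 to 27.3 ± 1.68 CPM (log2 fold change -0.54 ± 0.13, adjusted p = 0.00288). In the other direction Ccdc73 fell from 11.5, 12.9, 15.2 and 11.3 CPM to between 0.192 and 0.384 CPM (log2 fold change -5.34 ± 0.20), and Eif3m, a translation initiation factor subunit on the other strand, fell from 79.9 ± 21.6 to 61.0 ± 1.93 CPM (-0.40 ± 0.14, adjusted p = 0.0242). Fer1l5 fell from 15.0 ± 4.89 to 0.0931 ± 0.0945 CPM, beside Lman2l at 56.7 ± 4.31 and 60.9 ± 3.77 CPM. The channel gene Pkd2l2 fell from 14.9, 16.3, 17.5 and 9.44 CPM to between 0.839 and 1.44 CPM (log2 fold change -3.67 ± 0.20), while Fam13b on the other strand rose from 24.0 ± 13.3 to 66.8 ± 2.89 CPM (log2 fold change 1.47 ± 0.25, adjusted p = 2.1e-04). Fam221b fell by 3.67 on the log2 scale and its partner Tmem8b rose by 0.63. Zfp784 and Pcdhga10 were the other large rises of this kind, at 3.91 and 3.64 on the log2 scale, and a 5S rRNA gene, with 21 counts against 0, was at least 9.05-fold lower with the stressed group set to 3 counts.

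The prolactin gene Prl, a pituitary hormone, had the largest fall among the named overlapped genes (log2 fold change -7.90), and this value rested on 1 library. Its CPM was 2.22, 1.84, 1.54 and 181 in the non-stressed and 0.110, 0.0384, 0.0699 and 0.624 in the stressed libraries. Without non-stressed library 4 the log2 fold change was -3.19 ± 0.55 (adjusted p = 1.9e-04). The growth hormone gene Gh, at 1.08, 0.541, 0.0496 and 71.0 CPM, and Pomc, the precursor of corticotropin, at 1.33, 1.30, 1.24 and 9.50 CPM, were high in the same library.

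Exonic length also moved with the comparison. Among genes with no opposite-strand overlap, the median log2 fold change rose from -0.36 and -0.37 in the shorter of 5 equal classes of exonic length, through -0.16 and 0.05, to 0.25 in the class of the longest genes (over 6.08 kb). Without libraries 1 and 4 these medians were -0.21, -0.20, -0.08, 0.03 and 0.17. Over 5 classes of GC content they stayed between -0.11 and -0.04. Genes with over 6 kb of exonic length took 33.8, 36.9, 40.1 and 31.8% of the counts in non-stressed libraries 1 to 4 and 43.5 to 44.0% in the stressed ones. Genes under 1 kb took 3.45 ± 0.756% and 2.03 ± 0.0756% (SD, n = 4). For both shares the groups did not overlap (2-sided exact permutation test, p = 0.0286, which is the lowest value possible here, and 0.0333 after Benjamini-Hochberg adjustment over 7 shares). Library 3 lay nearest to the stressed group and library 4 farthest from it. The part of exonic length in the gene results was not tested beyond the fits that remove its trend.

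Of the 5597 genes tested with no opposite-strand neighbour within 5 kb, 108 were called and over 4-fold higher and 95 over 4-fold lower. Over all 16955 autosomal genes these numbers were 250 and 573. The 12 largest rises without such a neighbour that also passed the naming rule are described here. That rule required groups without overlap and a call without libraries 1 and 4, so both were set by the choice of genes. Chrna7, the alpha7 nicotinic acetylcholine receptor subunit (chromosome 7, 62748440 to 62862317), stood at 3.04, 6.01, 9.38 and 1.10 CPM in non-stressed libraries 1 to 4 and at 20.7, 18.9, 21.5 and 21.3 CPM in stressed libraries 1 to 4. All 4 stressed libraries were close together, and library 4 was the lowest of the non-stressed ones. Its log2 fold change was 2.06 ± 0.34 (SE, adjusted p = 1.6e-04), and 1.44 without libraries 1 and 4. Gabrb2, the beta2 subunit of the GABA-A receptor (chromosome 11, 42310584 to 42519855), stood at 8.56, 22.8, 60.2 and 3.64 CPM against 94.5, 98.0, 103 and 102 CPM. Its log2 fold change was 2.05 ± 0.48 (adjusted p = 0.00247), and 1.28 without libraries 1 and 4. The order of the non-stressed libraries was the same as for Chrna7. Klhl11, an adaptor of a ubiquitin ligase, stood at 2.16, 4.71, 10.9 and 2.04 CPM against 21.1, 21.1, 22.0 and 21.8 CPM (log2 fold change 2.09 ± 0.33). Syt10, a calcium sensor of vesicle release, stood at 0.951, 1.14, 2.09 and 0.552 CPM against 5.48, 4.99, 4.13 and 4.03 CPM (log2 fold change 1.95 ± 0.25, adjusted p = 1.8e-05). The zinc finger genes Zkscan16, Zfp382 and Zfp551 rose by 2.30, 1.80 and 1.78 on the log2 scale, the amino acid dipeptidase gene Pm20d2 by 2.12, Faxc by 1.99 and the collagen gene Col19a1 by 1.76. Also among the 12 largest rises were the small nucleolar RNA genes SNORA80E and SNORD115, whose kind occurs in many near-identical copies, so their counts are uncertain. The calls of the 10 protein-coding genes among the 12 were kept, where 1 of the 3 further fits was already part of the naming rule. Their male log2 fold changes ran from 1.58 for Col19a1 to 2.30 for Klhl11.

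The largest falls without such a neighbour were led by Ccdc125, which encodes a coiled-coil protein, and were otherwise mostly of short genes. Ccdc125 (chromosome 13, 100806225 to 100833748) stood at 6.34, 6.49, 3.18 and 7.01 CPM in the non-stressed and at 0.439, 0.499, 0.560 and 0.432 CPM in the stressed libraries. By the naming rule the groups could not overlap. The log2 fold change was -3.55 ± 0.30 (adjusted p = 1.9e-07) with all libraries and -3.25 without libraries 1 and 4. Polr2k, a small subunit shared by the RNA polymerases, stood at 10.3, 6.44, 7.45 and 10.5 CPM against 2.30, 2.19, 2.90 and 2.64 CPM (log2 fold change -1.78 ± 0.19). Fabp7, a fatty acid binding protein of astrocytes and radial glia, stood at 55.9, 39.9, 36.6 and 98.1 CPM against 22.0, 20.9, 16.4 and 18.8 CPM (log2 fold change -1.57 ± 0.24). Ndufs5, a subunit of respiratory complex I, fell by 1.56 on the log2 scale. Mia and the small heat shock protein gene Hspb1 fell by 1.51 and 1.48, but neither passed without libraries 1 and 4 and with the length and GC trend removed (-0.81 and -0.58, adjusted p = 0.0691 and 0.111). Others were the ribosomal protein genes Rpl11, Rpl38 and Rps26 and the gene copies Rpl9-ps6 and Psme2b, whose reads are hard to tell from those of their parent genes.

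**Figure D3:**
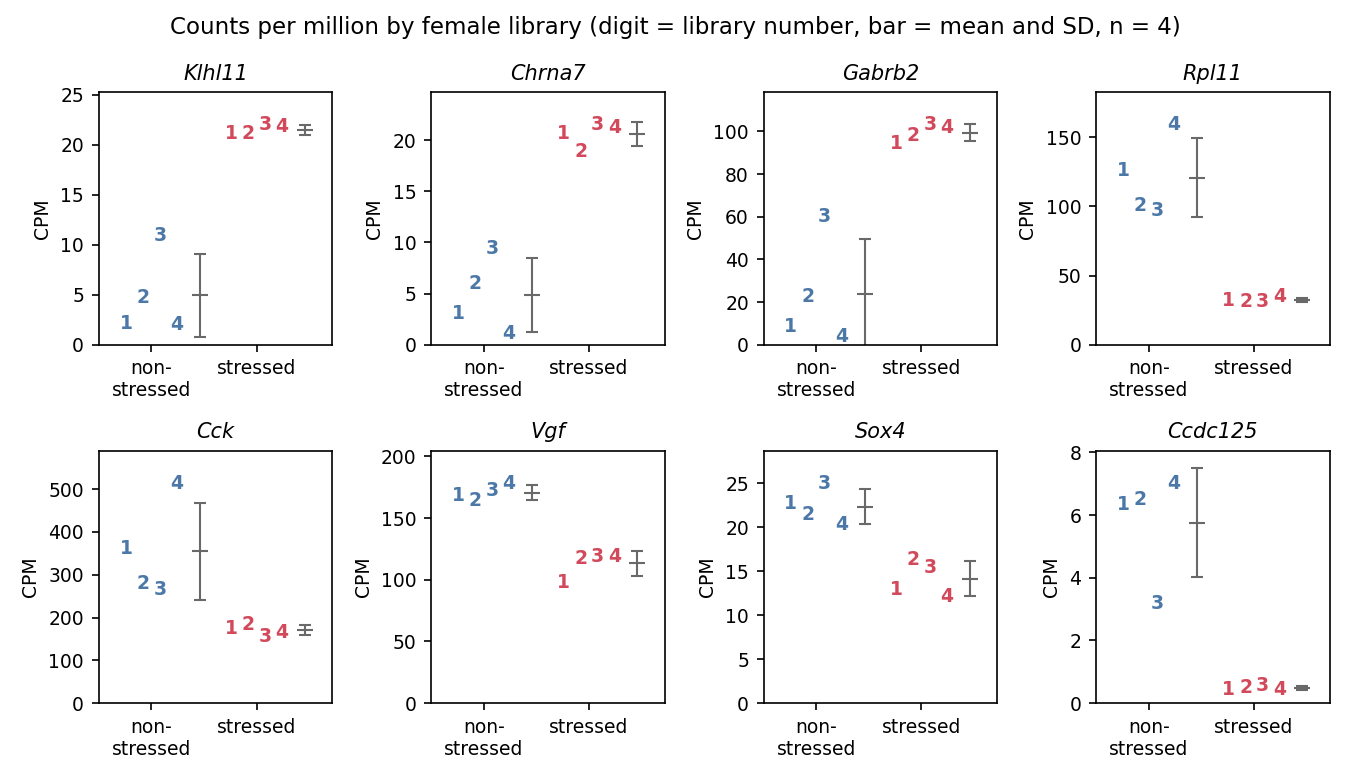
CPM of 8 genes without an opposite-strand overlap in each female library; digits are library numbers, and the bars beside them are the mean and SD (n = 4), with the lower end below 0 not drawn for Gabrb2. The stressed libraries lie close together and do not overlap the non-stressed ones, as the naming rule required for Klhl11, Chrna7, Gabrb2, Rpl11 and Ccdc125. Among the non-stressed libraries, 4, and less so 1, lies farthest from the stressed ones for Chrna7, Gabrb2, Rpl11 and Cck.

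Genes for cytosolic ribosomal proteins, the protein part of the ribosome, fell together. Of 75 tested autosomal members 68 were lower and 1 higher, against 27.2% lower and 22.0% higher over all autosomal genes, and the median log2 fold change was -0.94, against -0.03. Without libraries 1 and 4, 54 were lower and 2 higher (median -0.48), and 32 falls (42.7% of the list) were kept in all 3 further fits. Their share of all counts was 1.37, 1.03, 0.889 and 1.86% in non-stressed libraries 1 to 4 and 0.641 to 0.659% in the stressed ones. Library 4 was the highest and library 3 the nearest to the stressed group. Rpl13a (chromosome 7, 44774982 to 44778185) fell from 252, 216, 188 and 301 CPM to 56.0, 57.4, 55.6 and 60.1 CPM (log2 fold change -2.07 ± 0.12, adjusted p = 1.1e-09). Rpl11 (chromosome 4, 135755576 to 135780739), a large subunit protein that also binds the p53 regulator MDM2, fell from 126, 101, 96.8 and 159 CPM to 32.2, 31.4, 31.2 and 34.6 CPM (log2 fold change -1.91 ± 0.13). Both falls were kept, at -1.51 and -1.39 without libraries 1 and 4 and with the trend removed. Rps7 fell by 1.30, Rps26 by 1.68 and Rpl38 by 1.91 on the log2 scale, and all of these were kept. Ribosomal protein genes have many near-identical processed pseudogenes, so the split of reads between copies is uncertain. The promoter windows of Rpl11 and Rpl13a are shown as examples of the list, with 1 pyrimidine stretch marked, which lies upstream of the start in Rpl11 and just after it in Rpl13a. The windows are RefSeq sequence of build GRCm38.p6, 250 bases before to 50 after the start, on the minus strand at chr4:136053344-136053643 for Rpl11 and chr7:45128696-45128995 for Rpl13a, and capitals mark the stretch CTTTCC (or GGAAAG for the other strand).
Rpl11: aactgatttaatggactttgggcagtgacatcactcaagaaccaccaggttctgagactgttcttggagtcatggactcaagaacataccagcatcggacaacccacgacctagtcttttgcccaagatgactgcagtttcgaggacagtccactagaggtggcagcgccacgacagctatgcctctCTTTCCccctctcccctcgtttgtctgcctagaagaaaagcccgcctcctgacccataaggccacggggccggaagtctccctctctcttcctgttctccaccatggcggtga
Rpl13a: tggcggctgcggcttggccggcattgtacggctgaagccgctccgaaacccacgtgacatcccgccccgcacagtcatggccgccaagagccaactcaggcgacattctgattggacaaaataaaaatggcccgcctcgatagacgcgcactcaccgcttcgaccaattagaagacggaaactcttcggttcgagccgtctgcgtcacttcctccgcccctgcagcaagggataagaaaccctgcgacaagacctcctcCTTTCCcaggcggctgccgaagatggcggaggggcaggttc
This stretch was found on either strand in the windows of 27 of the 54 ribosomal protein genes matched by symbol, and in 30.1% of the 10471 matched protein-coding genes tested. It was in 30.1% of the windows of genes called higher and 29.9% of those called lower, so over all genes it did not differ by direction.

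Genes of the mitochondrion and the proteasome fell with them, less steadily. Of 78 nuclear genes of the respiratory chain, 68 were lower and 1 higher (median log2 fold change -0.83). Without libraries 1 and 4, 53 were lower (median -0.35), and 20 falls were kept (25.6% of the list, against 8.21% over all autosomal genes). Cox5b, a subunit of cytochrome c oxidase, fell from 275, 238, 188 and 344 CPM to 119, 119.9, 110.3 and 123 CPM (log2 fold change -1.15 ± 0.13, adjusted p = 5.7e-06). Cox7c fell by 1.19 and Uqcr10, a subunit of complex III, by 1.02 on the log2 scale, and both falls were kept. Of 78 mitochondrial ribosomal protein genes 66 were lower and 0 higher (median -0.52), and 12 falls were kept (15.4% of the list), among them Mrps21 (log2 fold change -1.75 ± 0.21). Of 36 proteasome subunit genes 29 were lower and 0 higher (median -0.47). Without libraries 1 and 4 only 7 were lower, near the share over all autosomal genes (2712 of 16955). Proteasome falls that were kept numbered 4 (11.1% of the list), among them the catalytic core gene Psmb3 (-0.90 ± 0.12). This was also near the 8.21% of kept falls over all autosomal genes. Without libraries 1 and 4 and with the length and GC trend removed, the median was -0.04 for the respiratory chain, -0.03 for mitochondrial ribosomal proteins and 0.06 for the proteasome, against 0.05 over all autosomal genes. The median exonic length was 1.78 kb for cytosolic ribosomal, 1.70 kb for respiratory chain and 2.89 kb for proteasome genes, against 3.63 kb over all.

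Of 18 clock genes tested, 10 were higher and 2 lower (median log2 fold change 0.35), 8 were higher and 1 lower without libraries 1 and 4, and 6 rises (33.3% of the list) and 1 fall were kept. The period genes encode repressors of the clock. Per3 (chromosome 4, 151088109 to 151129122) stood at 38.6, 45.6, 46.5 and 34.0 CPM in the non-stressed and at 74.7, 81.5, 75.6 and 77.2 CPM in the stressed libraries. The groups were well apart, with a log2 fold change of 0.91 ± 0.08 (adjusted p = 3.7e-07), 0.78 without libraries 1 and 4, and 0.59 with the length and GC trend also removed. Per2 rose from 21.8, 34.2, 35.0 and 25.5 CPM to 44.6, 47.4, 46.6 and 50.3 CPM (log2 fold change 0.69 ± 0.12, adjusted p = 1.8e-04). Nr1d2, which encodes the repressor REV-ERB beta, rose from 96.1, 83.4, 86.8 and 112 CPM to 134, 123, 125 and 116 CPM (log2 fold change 0.39 ± 0.10), and here library 4 was the nearest to the stressed group. Clock itself rose by 0.48 ± 0.07 on the log2 scale, but did not pass with the length and GC trend removed (0.14, adjusted p = 0.0624). The other kept members, named after their values were seen, were the output factor Dbp, the repressors Ciart and Cry2, and the activator Arntl, also called Bmal1. Dbp stood at 45.3, 46.5, 47.3 and 44.0 CPM against 65.8, 69.8, 68.8 and 70.7 CPM (log2 fold change 0.58 ± 0.07, adjusted p = 1.7e-05). Both groups were narrow and did not overlap. Ciart rose by 0.68 ± 0.12 and Cry2 by 0.49 ± 0.10 on the log2 scale. Arntl stood at 34.3, 28.6, 34.9 and 26.0 CPM against 27.8, 26.2, 26.2 and 25.8 CPM (log2 fold change -0.23 ± 0.09, adjusted p = 0.0389), with overlapping groups, and its value turned to 0.03 after rescaling to TPM. The Arntl call was also lost with DESeq2 (adjusted p = 0.0519), with median-ratio size factors (0.0603), with female libraries only (0.108), with no filter on low values (0.210) and by limma on FPKM (0.0636 to 0.0659). Dbp, Ciart, Cry2 and Arntl overlap genes on the opposite strand. The labels used here give no time of day of collection, and its part was not tested.

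**Figure D4:**
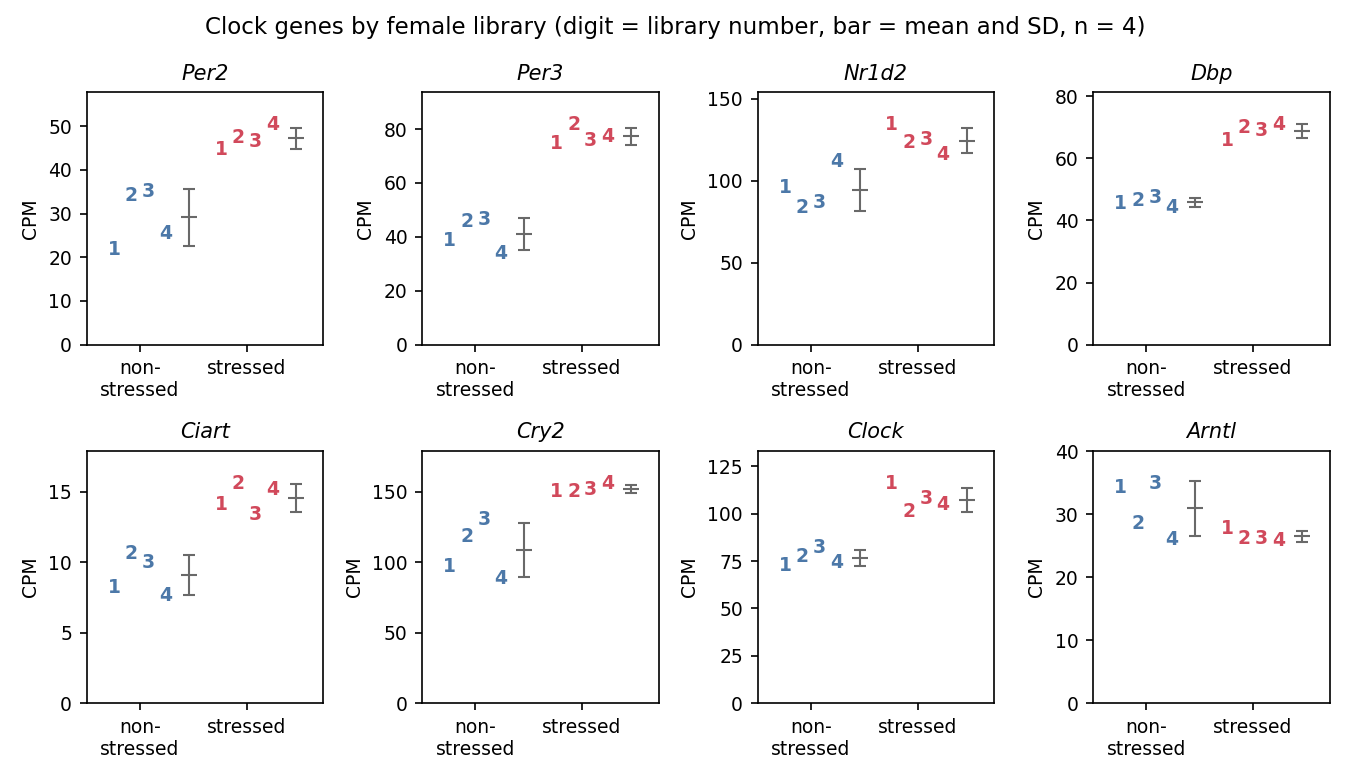
CPM of 8 clock genes in each female library; digits are library numbers, and the bars beside them are the mean and SD (n = 4). For 7 of the genes every stressed library lies above every non-stressed one, from 74.7 to 81.5 CPM against 34.0 to 46.5 CPM for Per3; for Arntl the groups overlap.

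The glucocorticoid receptor gene Nr3c1 stood at 85.4, 81.5, 94.9 and 82.5 CPM in the non-stressed and at 97.1, 92.3, 96.1 and 92.9 CPM in the stressed libraries (log2 fold change 0.13 ± 0.07, adjusted p = 0.122). Nr3c1 passed in fits of genes with no opposite-strand overlap (0.19, adjusted p = 0.0352), of genes with none within 5 kb (0.18, adjusted p = 0.0389) and on TPM (0.38, adjusted p = 0.00324), so its call depended on the fit. The mineralocorticoid receptor gene Nr3c2 passed at 0.25 ± 0.10 (adjusted p = 0.0376), but not without libraries 1 and 4 (0.15, adjusted p = 0.234), and it overlaps a gene on the opposite strand. Fkbp5, a co-chaperone that glucocorticoids induce, did not pass (0.16 ± 0.10, adjusted p = 0.200), and its value, like that of Nr3c1, turned negative with the length and GC trend removed (-0.23 for Fkbp5 and -0.02 for Nr3c1), while on TPM Fkbp5 passed at 0.41 (adjusted p = 0.0170). In the list of receptors and co-chaperones, 1 of 14 members was higher and 6 lower (median -0.14, or 0.11 after rescaling to TPM). Fkbp4, the co-chaperone that favours active receptor, fell from 156, 127, 117 and 157 CPM to 94.1, 95.1, 91.7 and 91.2 CPM (log2 fold change -0.59 ± 0.09, adjusted p = 1.2e-04), and this was the 1 kept call of the list. Stip1, which links HSP70 to HSP90, fell by 0.46 ± 0.06.

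Of 18 glucocorticoid-induced genes, 3 were higher and 6 lower, and the median of 0.01 was near that of all genes. Zbtb16, a transcription factor gene that glucocorticoids induce, stood at 11.7, 22.9, 39.4 and 5.30 CPM in the non-stressed and at 53.5, 52.5, 47.3 and 53.6 CPM in the stressed libraries (log2 fold change 1.38 ± 0.35, adjusted p = 0.00433). Library 3 was close to the stressed group and library 4 far below it, and without libraries 1 and 4 the value was 0.75, still past the threshold. Per1, a clock gene on this list, passed at 0.43 ± 0.17 but was 0.08 without libraries 1 and 4. Ddit4, an inhibitor of the growth kinase mTOR, fell by 0.42 ± 0.08 but not with the length and GC trend removed (-0.09). The metallothionein gene Mt1 stood at 214, 149.9, 134 and 303 CPM against 125, 128, 142 and 132 CPM. Its groups overlapped, its log2 fold change of -0.61 ± 0.18 rested on libraries 1 and 4 (-0.08 without them), and it turned to 0.32 when the trend was removed as well.

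Of 20 immediate early genes, which follow neuronal activity, 7 were lower and 0 higher, against 27.2% lower over all autosomal genes (median -0.21, or 0.08 after rescaling to TPM), 8 were lower without libraries 1 and 4, and 0 were kept in all 3 further fits. Egr4 stood at 11.5, 15.7, 19.4 and 14.7 CPM against 8.44, 11.9, 11.7 and 11.2 CPM (log2 fold change -0.51 ± 0.15, adjusted p = 0.0112), with a slight overlap of the groups. Ier2 and Ier5 fell by 0.81 and 0.44 on the log2 scale. Of 13 genes of neurotrophic factors and their receptors, 4 were higher and 3 lower (median -0.01). Vgf, a secreted neuropeptide precursor, fell from 168, 164, 172 and 178 CPM to 98.0, 117, 119 and 119 CPM (log2 fold change -0.59 ± 0.08, adjusted p = 3.7e-05). Its groups were narrow and far apart, and the fall was kept. Vegfa fell by 0.23 ± 0.09, with a value of 0.04 after rescaling to TPM. The neurotrophin gene Bdnf did not pass (-0.24 ± 0.13, adjusted p = 0.128), and stood at -0.03 without libraries 1 and 4 and at 0.03 after rescaling to TPM, but passed at -0.43 with the length trend removed (adjusted p = 0.0382).

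Of 21 glutamate receptor genes 8 were higher and 0 lower (median 0.24), and 3 rises were kept. With the length and GC trend removed 4 were higher and 3 lower (median 0.01). Grik3, a kainate receptor subunit, rose from 25.6, 43.4, 43.9 and 15.2 CPM to 59.2, 63.2, 66.0 and 60.8 CPM (log2 fold change 0.96 ± 0.22, adjusted p = 0.00198), and by 0.54 without libraries 1 and 4. Grin3a, an NMDA receptor subunit, rose by 0.41 ± 0.10 but stood at -0.04 with the length and GC trend removed. Of 13 GABA receptor genes 5 were higher and 2 lower (median -0.04), or 3 higher and 3 lower with the trend removed (median -0.07), and Gabbr2, a subunit of the GABA-B receptor, rose by 0.79 ± 0.25 (adjusted p = 0.0148). Of 20 monoamine receptor genes 4 were higher and 4 lower (median -0.02), near the 22.0% higher and 27.2% lower over all autosomal genes. Adra1a, an alpha1 adrenergic receptor, rose from 1.46, 2.87, 5.51 and 1.21 CPM to 6.58, 7.36, 6.78 and 7.73 CPM (log2 fold change 1.34 ± 0.30), and Adra2a, an alpha2 receptor that restrains noradrenaline release, fell from 14.1 ± 1.37 to 10.8 ± 1.02 CPM, without overlap (log2 fold change -0.38 ± 0.10, adjusted p = 0.00643). Both calls were kept. Of 23 genes of vesicle release 11 were higher and 2 lower (median 0.31), but all 11 rises were at genes with an opposite-strand overlap: of the 6 members without one, 0 were higher and 1 lower (median -0.02). With the trend removed 4 of the 23 were higher and 1 lower (median 0.05). Of 19 postsynaptic scaffold genes 6 were higher and 1 lower (median 0.41), of the 8 without an overlap 1 was higher and 1 lower (median 0.13), and with the trend removed 4 of the 19 were higher and 4 lower. The median exonic length was 6.72 kb for glutamate receptor, 6.69 kb for GABA receptor, 7.64 kb for vesicle release and 9.24 kb for scaffold genes. The 1 scaffold gene that fell was Nrgn, a calmodulin-binding protein of dendritic spines with a short transcript, from 1426, 1183, 1144 and 1768 CPM to 681, 747, 717 and 769 CPM (log2 fold change -0.93 ± 0.13).

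Among the lists, chromatin regulator genes had the largest share of rises, 17 higher and 3 lower of 26 (median 0.48). Their median exonic length was 13.1 kb, and with the length and GC trend removed 7 were higher and 6 lower (median 0.02). The histone methyltransferase gene Kmt2d rose from 65.1, 97.7, 122 and 62.3 CPM to 143, 153, 162 and 171 CPM (log2 fold change 0.86 ± 0.16), and by 0.20 without libraries 1 and 4 and with the trend removed. The DNA demethylase gene Tet1 rose by 0.67 ± 0.12, but did not pass with the length trend removed (0.18, adjusted p = 0.293) or with the length and GC trend removed (0.23, adjusted p = 0.120). Against the list, the histone deacetylase gene Hdac1 fell from 37.8, 33.7, 31.5 and 33.2 CPM to 25.7, 26.3, 25.4 and 25.1 CPM (log2 fold change -0.41 ± 0.07, adjusted p = 1.6e-04), a call that was kept.

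Most lists of hippocampal cell type markers held both rises and falls, while those of neurogenesis and of myelin held falls only. Over all autosomal genes 22.0% were higher and 27.2% lower. In bulk tissue, fewer cells of a type and less RNA per cell cannot be told apart. Of 11 dentate granule neuron genes 6 were higher and 3 lower (median 0.53), but the 5 without an opposite-strand overlap had a median of -0.35, with 1 higher and 3 lower. The dentate list summed to 609 to 659 CPM in the non-stressed and 653 to 684 CPM in the stressed libraries, with overlap. Prox1, the identity factor of these neurons, rose by 0.53 ± 0.12 and overlaps a gene on the other strand. Calb1, a calcium buffer of these neurons and of interneurons, fell from 180.2, 123, 132 and 232 CPM to 112, 107, 95.7 and 97.9 CPM (log2 fold change -0.70 ± 0.15), and Tdo2, a tryptophan-degrading enzyme, by 0.83 ± 0.14. Of 17 interneuron genes 5 were higher and 8 lower (median -0.13), and of the 13 without an opposite-strand overlap 3 were higher and 8 lower (median -0.59). Without libraries 1 and 4, 1 of the 17 was higher and 3 were lower (median 0.00). The list summed to 1917 to 2444 CPM in the non-stressed and 1786 to 1864 CPM in the stressed libraries, without overlap. The neuropeptide gene Cck fell from 361, 280.1, 266 and 513 CPM to 175, 184, 156 and 166 CPM (log2 fold change -1.07 ± 0.16, adjusted p = 6.2e-05), by 0.65 without libraries 1 and 4. Pvalb fell by 1.06 ± 0.22 but did not pass without libraries 1 and 4 and with the trend removed (-0.10). In the CA fields 3 of 15 genes were higher and 4 lower (median 0.02), with Pcp4, a calmodulin regulator of CA2, at -1.05 ± 0.17. The 16 genes of the whole CA list summed to 1489 to 1573 CPM in the non-stressed and 1488 to 1658 CPM in the stressed libraries, with overlap.

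Of 10 neurogenesis genes 6 were lower and 0 higher (median -0.38). Without libraries 1 and 4 and with the length and GC trend removed, 2 were lower and 2 higher (median -0.05). The 15 genes of the whole list summed to 515 to 828 CPM in the non-stressed and 453 to 490.5 CPM in the stressed libraries, without overlap. The kept call was Sox4, a transcription factor of immature neurons. Sox4 (chromosome 13, 29132902 to 29137696) stood at 22.4 ± 2.01 CPM in the non-stressed, with 20.3 the lowest, and at 12.9, 16.3, 15.4 and 12.1 CPM in the stressed libraries (log2 fold change -0.65 ± 0.10, adjusted p = 9.7e-05). The value was -0.67 without libraries 1 and 4 and -0.67 with the trend also removed. Neurod1, a factor of newborn granule neurons, fell by 0.69 ± 0.14 and was not kept. Of 15 astrocyte genes 3 were higher and 5 lower (median -0.10), and 0 of the rises and 2 of the falls were kept. The list summed to 6504 to 6973 CPM in the non-stressed and 6818 to 7296 CPM in the stressed libraries, with overlap. Sox9, a transcription factor of astrocytes and neural stem cells, fell from 39.5, 43.6, 38.8 and 42.4 CPM to 26.8, 27.4, 30.7 and 30.1 CPM (log2 fold change -0.52 ± 0.07, adjusted p = 3.6e-05), with narrow groups, and the gap junction gene Gjb6 by 0.65 ± 0.11. Both were kept. Of 15 oligodendrocyte and myelin genes 4 were lower and 0 higher (median -0.14), and the kept call was Opalin, a membrane protein of myelinating cells (-0.65 ± 0.12). Of 16 microglia genes 2 were higher and 4 lower (median -0.19, or 0.08 after rescaling to TPM). With libraries 1 and 4 left out, 2 were higher and 0 lower (median 0.07), and with the trend also removed 6 were higher and 0 lower (median 0.23). Laptm5, a lysosomal protein, rose by 0.52 ± 0.13.

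Markers of tissue around the hippocampus were measured in the same libraries. Genes of the choroid plexus and ependyma summed to 3163 to 8267 CPM in the non-stressed and 2643 to 7130.5 CPM in the stressed libraries, with 0 of 15 members undetected, 0 called higher and 1 lower. Meningeal fibroblast genes summed to 1202 to 1712 and 745 to 1075 CPM, with 0 of 15 undetected and 3 lower, and genes of the neighbouring cortex, thalamus and striatum to 419 to 518 and 392 to 414 CPM, with 0 of 18 undetected and 5 lower. Over all autosomal genes 27.2% were called lower, a share that these lists were near or below. Blood genes summed to 567 to 1011 and 486 to 502 CPM. Their share called lower was above that over all genes, with 3 of 7 tested lower and 0 higher. The median log2 fold change of the blood list was -0.70, and -0.06 without libraries 1 and 4. Meningeal, blood and neighbouring-region sums thus did not overlap between the groups. Their part in the other results was not tested.

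**Figure D5:**
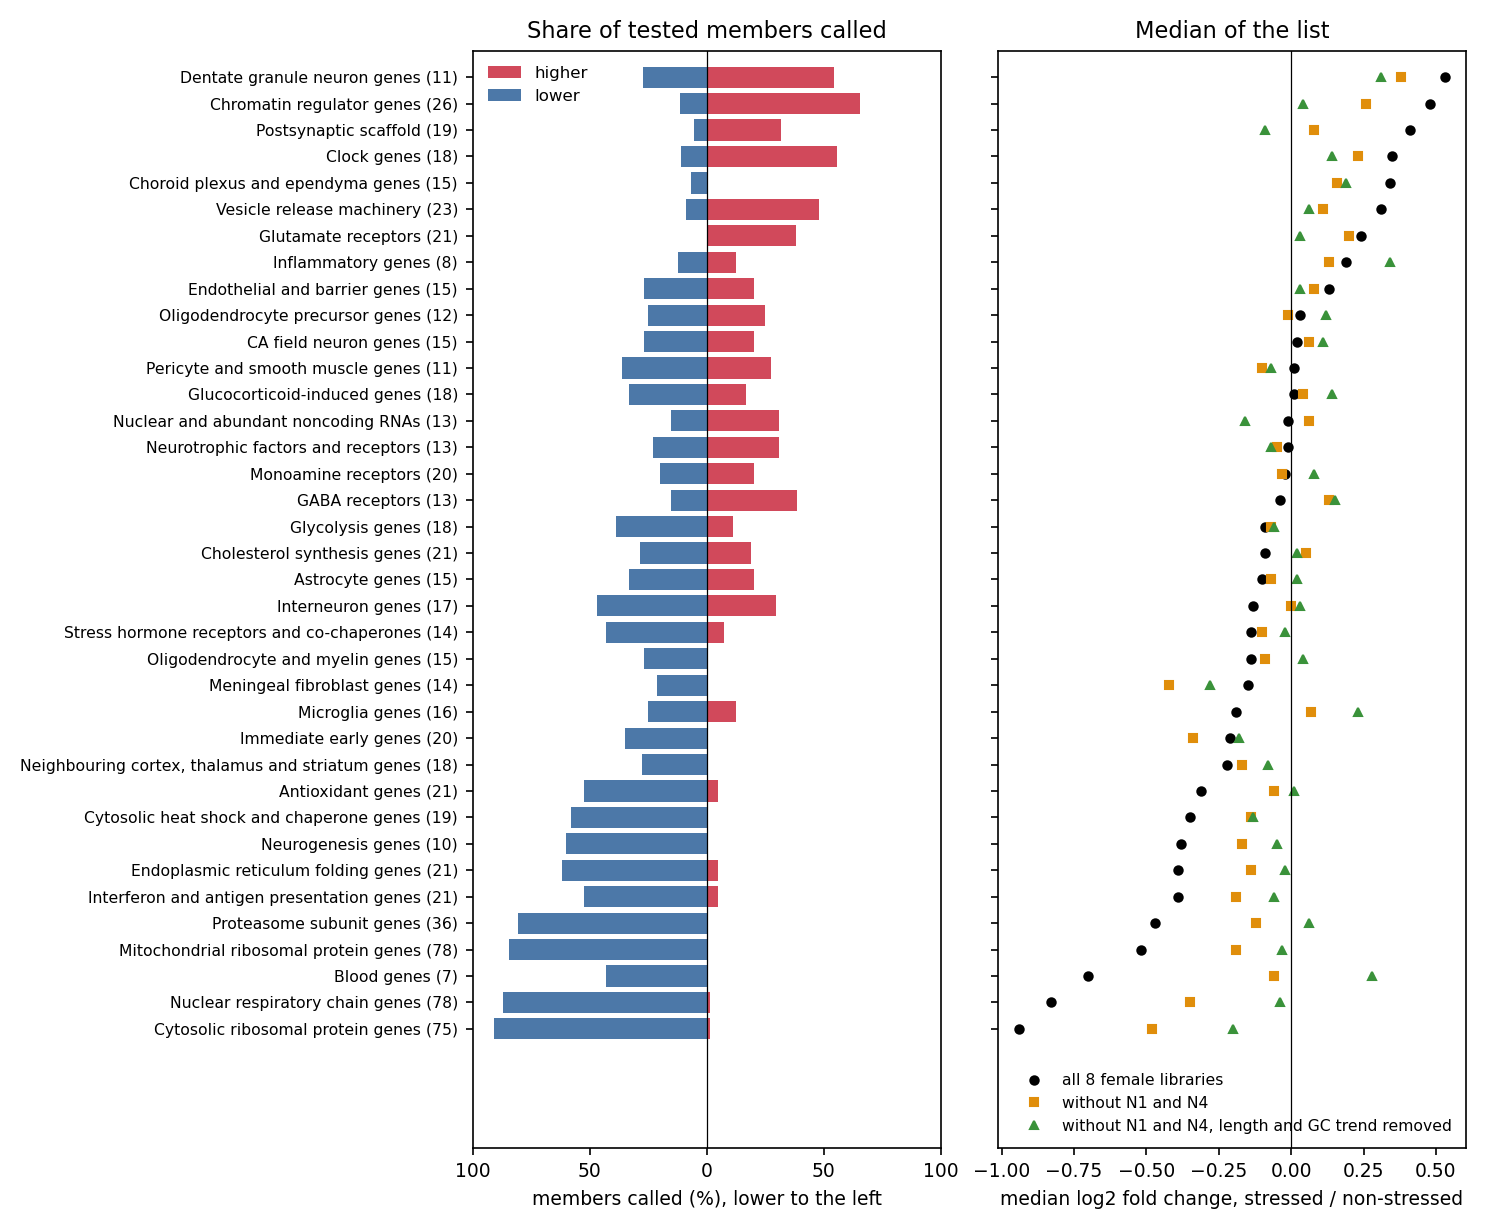
Gene lists, with the number of autosomal members tested in parentheses. Left, share of members called higher (red, to the right) or lower (blue, to the left); right, median log2 fold change with all female libraries (N, non-stressed), without libraries 1 and 4, and with the length and GC trend also removed. The ribosomal protein list stands at -0.94, -0.48 and -0.20 in these fits, the lowest in the first and second of them.

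Of 21 genes of endoplasmic reticulum folding 13 were lower and 1 higher (median -0.39), 7 were lower and 2 higher without libraries 1 and 4, and 4 were lower and 3 higher with the length and GC trend also removed (median -0.02). Calr, a calcium-binding chaperone of the endoplasmic reticulum, fell from 486, 459.5, 419 and 442 CPM to 277, 306, 306 and 299 CPM (log2 fold change -0.61 ± 0.08, adjusted p = 1.4e-05), with non-stressed library 4 nearer to the stressed group than libraries 1 and 2. Sdf2l1 fell by 0.96 ± 0.17 and was not kept. Of 19 cytosolic heat shock genes 11 were lower and 0 higher (median -0.35), 6 were lower without libraries 1 and 4, and 5 of the 13 without an opposite-strand overlap were lower (median -0.14). Ahsa1, an activator of HSP90, fell by 0.54 ± 0.09, 1 of 3 kept falls in that list, and 3 falls of the endoplasmic reticulum list were kept. Of 21 antioxidant genes 11 were lower and 1 higher (median -0.31), but 5 were lower and 1 higher without libraries 1 and 4 (median -0.06), and 2 lower and 7 higher with the trend also removed (median 0.01). Gpx4, which reduces lipid peroxides, fell from 159, 129, 101 and 175 CPM to 70.5, 70.9, 66.0 and 72.2 CPM (log2 fold change -1.02 ± 0.13), the 1 kept fall of the list. Of 21 interferon and antigen presentation genes 11 were lower and 1 higher (median -0.39), but 3 were lower without libraries 1 and 4, and 0 were kept. In metabolism, 7 of 18 glycolysis genes were lower and 2 higher, with Eno1 at -0.47 ± 0.11, and 6 of 21 cholesterol synthesis genes were lower and 4 higher, with Fdps, a farnesyl diphosphate synthase, at -0.86 ± 0.16. The counts of the cholesterol list were near the shares over all autosomal genes, 27.2% lower and 22.0% higher.

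The female differences were set beside those of the males, which come from other libraries in the same fit. The labels give a pooling size of 3 for each non-stressed male library and of 2, 2, 1 and 2 for chronic-stressed male libraries 1 to 4. In males the pooling size thus differed along with stress, and its part was not tested. A test of whether the stress difference was larger or smaller in females than in males found 0 of 16955 genes by edgeR (0%), with 357 genes at an unadjusted p under 0.05 (2.11%). DESeq2 also called 0 and limma on log2 FPKM 1, Gm23363, which overlaps an opposite-strand gene and is named because of this call. The median SE of the interaction was 0.201 on the log2 scale, which limits the size of a difference between the sexes that could be seen. Of the 4500 calls with no opposite-strand overlap in females, 4453 had the same sign in males. Across those 9566 genes Pearson r of the female and male log2 fold changes was 0.86, and 0.81 without female libraries 1 and 4, where genes are not independent replicates. Among the genes described above, the male log2 fold changes were 2.18 for Chrna7, 2.06 for Gabrb2, 1.05 for Per3, 0.81 for Per2, -1.71 for Rpl11, -0.58 for Sox4, -0.48 for Sox9 and -0.56 for Vgf, each with the sign found in females.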

How the data were processed

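RNA was sequenced from hippocampus in 16 libraries, of which the 8 female ones are compared. Per the submitters' processing notes, HISAT2 2.0.1, HTSeq 0.6.1 and build GRCm39 were used; the strand setting is not given in the sources used here. The authors deposited 1 table of 55359 genes with whole-number counts and FPKM (counts scaled to exonic length and library total), and recomputing FPKM from the counts gave a largest difference of 0.005. The 17569 genes whose FPKM reached 0.5 in 4 or more of the 16 libraries entered the fit with edgeR 4.0.16 in R 4.3.3: quasi-likelihood test, TMM, 4 group means, no replicate block, Benjamini-Hochberg adjustment over all of them. An SE stands beside each log2 fold change and an SD beside CPM and shares. Overlaps and neighbours within 5 kb use the deposited coordinates; GC content and biotype come from GENCODE M21 (GC for 98.8% of tested genes). DESeq2 1.42.0 and limma 3.58.1 served as alternatives, and only the edgeR fit was tested on simulated data. Floors of 3 counts and intervals cover counting error only. Genes were named as the 12 largest changes each way without an opposite-strand neighbour, the 6 largest with an overlap, some of the up to 4 called members of each list with the smallest p, and Nr3c1, Nr3c2, Fkbp5 and Bdnf; the first 2 sets also required a call without libraries 1 and 4, separated groups and an average FPKM of 1 or more. A gene that this rule names is not reported here. The genes, lists and tests were chosen with earlier results of these data known. The length and GC fits and the pituitary list were added after seeing the data. Figures were drawn with matplotlib 3.10.9.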

Additional observations from a re-analysis of the deposited data

Results flagged for a closer look

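Among 196 groups of 4 values examined (named genes, pituitary and globin genes and shares of counts in each female group), 9 held a library whose gap to the nearest other passed Dixon's 95% critical value. Chance gives about 1 in 20 such groups where values are chosen without sight of the data. The named genes were chosen from these data, and the pituitary genes after prolactin was seen to rest on 1 library. The number found can therefore not be set against that rate. Non-stressed library 4 stood apart at Prl (181 CPM against 1.54 to 2.22 in the other libraries of its group), Gh (71.0 against 0.0496 to 1.08), Pomc (9.50 against 1.24 to 1.33) and Cga, the common alpha subunit of pituitary glycoprotein hormones (1.93 against 0). Stressed library 4 stood apart at Prl, with 0.624 CPM against 0.0384 to 0.110, and at Gnpnat1, with 11.4 CPM against 13.7 to 14.1. Stressed library 1 stood apart at Vgf, with 98.0 CPM against 117 to 119, and at Cga, with 0.0548 CPM against 0. This Cga value lies at the floor of the counts. Stressed library 3 stood apart at Prox1, with 119 CPM against 107 to 108. For Vgf, Prox1 and Gnpnat1 these values leave the groups without overlap, which the naming rule required for Gnpnat1.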

How the results depend on the processing

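The count of autosomal calls, 8352, ran from 6047 (length trend removed) to 9263 (TPM) under the other scalings, filters, tools and depths, and from 6874 to 9466 with 1 library left out. It was 4396 in a fit of genes with no opposite-strand overlap, 2492 with none within 5 kb, 5379 without non-stressed libraries 1 and 4, and 4669 with the length and GC trend also removed. The 295 genes over 4-fold lower beside an abundant partner became 88 with FPKM of at least 2, 65 and 24 by limma with 0.5 and 1 added to FPKM, 180 on TPM and 632 with no filter; the added constant shrinks folds of low genes. The replicate numbers did not pair the libraries (correlations of deviations from -0.13 to 0.01), and with the replicate block 8280 genes were called; among named genes only Vegfa lost its call (-0.22, adjusted p = 0.0558).

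With the length and GC trend removed, lower genes numbered 40 for mitochondrial ribosomal proteins, 14 for the proteasome and 3 for immediate early genes, and higher chromatin genes 7. With the length trend alone they were 38, 14, 2 and 7, with 44 lower respiratory and 6 higher clock genes. On TPM the first 3 were 32, 9 and 2. Without libraries 1 and 4, 32 mitochondrial ribosomal and 7 proteasome genes were lower, and with the trend also removed 33 cytosolic ribosomal, 20 respiratory, 18 mitochondrial ribosomal, 5 proteasome and 4 immediate early genes were lower and 5 chromatin genes higher, while 7 cytosolic ribosomal, 13 respiratory, 11 mitochondrial ribosomal and 6 proteasome genes were higher. In a fit of female libraries alone 17 proteasome genes were lower. With 1 library left out, 19 to 31 proteasome and 4 to 7 immediate early genes were lower. For the interaction, limma called 1 gene with 0.1 or 0.5 added to FPKM and 1 on TPM.

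Without libraries 1 and 4 no share can pass (smallest exact permutation p of 0.0667). The differences, in percentage points, were 1.70 (2.18 to 3.04 with 1 library left out) for overlapped genes, -0.118 (-0.106 to -0.0835) for those beside an abundant partner, -0.312 (-0.772 to -0.447) for cytosolic ribosomal protein genes, -1.32 (-1.58 to -1.09) for mitochondrially encoded genes, -0.825 (-1.70 to -1.12) under 1 kb and 5.21 (6.79 to 9.57) over 6 kb. Haemoglobin genes, whose groups overlapped (exact permutation p = 0.143), gave -0.00959 to -0.00453.

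Of 87 named genes, 59 never lost a call or reversed, and 7 reversed. With the length and GC trend removed these were Grin3a (-0.04), Nr3c1 (-0.02) and Fkbp5 (-0.23); with the length trend, Nr3c1 (-0.12) and Fkbp5 (-0.16); on TPM, Arntl (0.03), Vegfa (0.04) and Bdnf (0.03); without libraries 1 and 4 and with the trend removed, Mt1 (0.32), Grin3a (-0.04) and Fkbp5 (-0.08). The causes were not tested. At these depths a gene under a few CPM rests on few counts.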
